A study of Mus musculus with 10 samples.

Results

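The overlapping features of chromosome 9, 2410004A20Rik and Gm20509, were followed through 10 RNA-seq libraries of male mouse embryonic stem cells (mESCs). They are 2 of the 25965 features of the deposited table. They were chosen by measured values, because both lay lower after culture on gelatin and with passage than in freshly derived cells, so their levels and their differences from p0 or between culture methods are given as descriptions, without a test. 2410004A20Rik is the older symbol of Khdc3, the gene of the protein called Filia. Gm20509 is a transcript model that joins a coding piece of Khdc3 to exons of the next gene, Rsl24d1.

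The study derived 2 independent C57/Bl6 male mESC lines in its own conditions, divided each at passage 0 (p0), and collected RNA after 10 and 20 passages (p10 and p20). All cells, p0 included, were kept in 2i medium, a defined medium with inhibitors that hold mESCs in the naive state. In the Keniry2022 method, which the labels call New or Off, cells grew in suspension and were passaged every day. In the Mulas2019 method, called Old or On in the labels, cells grew on gelatin at lower density and were passaged less often, so that p20 of Keniry2022 and p10 of Mulas2019 were matched in days of culture. The 5 groups were p0, p10 Keniry2022, p20 Keniry2022, p10 Mulas2019 and p20 Mulas2019, with 2 libraries, 1 from each line, in each group. The p0 libraries are the common start of both methods, and p10 and p20 of a method come from the same lines, so the 4 libraries of a method are not independent derivations.

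Filia is a KH-domain protein, a member of a family named after an RNA-binding fold. In the oocyte and early embryo it belongs to the subcortical maternal complex, a maternal assembly needed for the first cleavages, where it is known for keeping chromosomes correctly divided. In mESCs it is known for work at stalled replication forks and in the response to DNA damage.

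Whole reads were recovered from the deposited log2 values, which behaved as log2 RPKM (reads scaled by exon length and by library total). Library totals lay between 24053996 and 30236823 reads. All 8 mESC markers examined were present, from 5.18 to 11.58 log2 RPKM in single libraries. Of 11 oocyte markers, 1 had a mean log2 RPKM above 0 (Zp3, a zona pellucida gene, from 1.96 to 3.06), while Figla and Oosp1 had 0 reads in every library. The summed level of the oocyte list was 7.504 to 8.841 RPKM in Keniry2022, 4.638 to 6.095 in Mulas2019 and 4.997 to 7.643 at p0. That of 6 genes of the 2-cell-like state was 2.624 to 3.958, 2.262 to 5.544 and 4.288 to 7.497 RPKM in the same order, with overlap between the methods. The mESC, neural and trophoblast lists also separated the methods without overlap, as did 46.5% of single features tested, in either direction. Summed primitive endoderm, mesoderm and fibroblast markers overlapped between the methods. They were at most 2.483, 0.7682 and 0.3539 RPKM in any library. Summed mESC markers (8 genes, led by Dppa5a at a mean of 10.51 log2 RPKM) were at 2985 to 3222 RPKM in Keniry2022, 2757 to 2933 in Mulas2019 and 3708 to 5405 at p0. Summed neural markers (Pax6, Sox1 and Nes, of which Nes was the highest) were at 4.473 to 5.436, 5.514 to 7.726 and 4.435 to 5.766, and summed trophoblast markers (4 genes, led by Eomes) at 2.176 to 2.813, 2.941 to 4.061 and 2.391 to 2.649, in the same order. The part of these lists in the results below was not tested. The libraries are bulk RNA, in which fewer cells with the transcript and less transcript per cell cannot be told apart.

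Some libraries stood apart. Reads of 4 Y-linked genes were at most 132 in one set of 5 libraries and at least 4578 in the other set. Replicate 1 was the low library in p0, p10 Keniry2022, p10 Mulas2019 and p20 Mulas2019, whereas in p20 Keniry2022 replicate 1 had 6659 such reads and replicate 2 had 48. The numbers of p20 Keniry2022 thus went against those of the other groups, and changes within a line are given both by the labelled number and by Y-linked reads. From DNA sequencing, the paper reports that a male line lost its Y chromosome while it was being derived, ahead of the culture comparison. Whether the libraries low in Y-linked reads come from that line was not tested here. The replicates of a group may therefore differ in karyotype. Of the p0 libraries, replicate 1 lay apart from the others in several genes named below, and differences from p0 that it moved by over 1.5 times are also given without it.

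In mm10 (GRCm38), 2410004A20Rik spans chr9:73101836-73104443 on the plus strand, Gm20509 chr9:73103729-73117920 and Rsl24d1 chr9:73113426-73123333, both on the same strand. GENCODE M21 gives the gene at the first span the name Khdc3. The exon lengths that the deposited values imply were 2055 bases for 2410004A20Rik, 387 for Gm20509 and 1716 for Rsl24d1. Within the deposited span, the 387 exon bases of Gm20509 consist of 161 bases inside an exon of Khdc3 and 226 inside exons of Rsl24d1, with 0 in neither. The whole GENCODE M21 model of Gm20509 is longer, with 1016 exon bases in 7 exons from 73102470, and its part outside the deposited span is not used here. The shared 161 bases are all coding in the Khdc3 transcript examined and make 7.83% of the implied exon length of 2410004A20Rik. The shared stretch, chr9:73103729-73103889 on the plus strand, is shown because it holds the exon bases that the deposited features have in common, and the capitals mark bases in runs of at least 20 that recur within that transcript.
shared stretch: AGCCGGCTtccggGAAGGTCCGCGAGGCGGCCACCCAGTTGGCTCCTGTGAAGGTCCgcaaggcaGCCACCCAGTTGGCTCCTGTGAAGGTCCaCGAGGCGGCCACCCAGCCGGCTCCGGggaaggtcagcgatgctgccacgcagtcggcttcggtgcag
Of its bases, 106 lie in such runs, and the most common distance between copies is 36 bases. The join in Gm20509 is shown because reads across it would belong to that transcript alone. It places the last 20 bases of the shared stretch (lower case) beside 20 bases of an Rsl24d1 exon (capitals), over a gap of 10998 bases, from 73103889 to 73114888.
join of Gm20509: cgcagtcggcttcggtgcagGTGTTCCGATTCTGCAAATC
The deposited table does not say how many reads crossed this join.

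2410004A20Rik, the Filia gene, was highest at p0 and lowest at p20 Mulas2019. At p0 its level was 6.13 log2 RPKM in replicate 1 and 5.56 in replicate 2 (3467 and 2614 reads). At p10 Keniry2022 it was 5.52 and 5.64, and at p20 Keniry2022 4.83 and 5.28 (1641 and 2361 reads). At p10 Mulas2019 it was 4.95 and 5.02, and at p20 Mulas2019 4.42 and 3.85 (1221 and 812 reads). In RPKM the group means (n = 2) were 58.6 at p0, 48.0 and 33.7 at p10 and p20 of Keniry2022, and 31.7 and 17.9 at p10 and p20 of Mulas2019.

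The order of the group means was p0, p10 Keniry2022, p20 Keniry2022, p10 Mulas2019 and p20 Mulas2019. Neighbours in this order overlapped in 2 cases, p0 with p10 Keniry2022 and p20 Keniry2022 with p10 Mulas2019. Both p20 libraries lay below both p10 libraries in each method, as did those of 22.8% of all features tested in Keniry2022 and 25.5% in Mulas2019. The log2 difference of p20 Mulas2019 from p0 was -1.71 ± 0.25 (SE from the fit of 5 groups, n = 2 against 2), a 3.27-fold lower level. At p10 Mulas2019 the difference from p0 was -0.86 ± 0.25, at p20 Keniry2022 -0.79 ± 0.25 and at p10 Keniry2022 -0.26 ± 0.25. Without p0 replicate 1 these were -0.57, -0.50 and 0.03. For p20 Mulas2019 it was -1.42 without p0 replicate 1, and without p20 Mulas2019 replicate 2 it was also -1.42. Both p20 Mulas2019 libraries lay below both p0 libraries, as did 31.1% of all features tested, and this contrast chose the members.

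**Figure D1:**
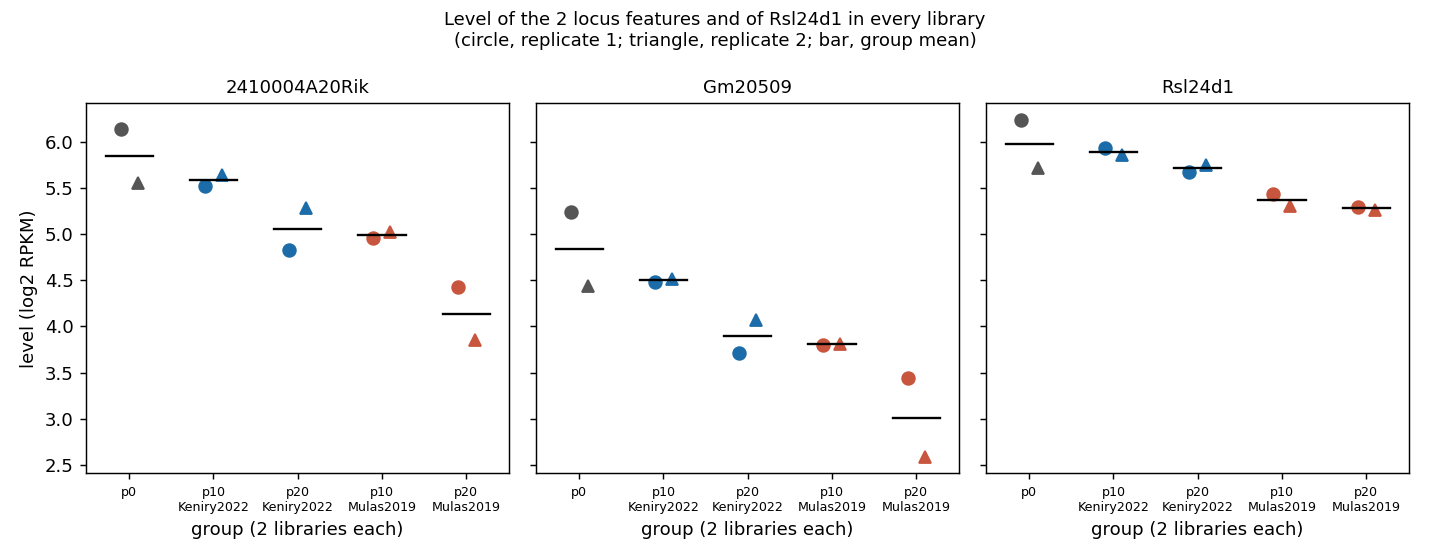
Levels of 2410004A20Rik, Gm20509 and Rsl24d1 (log2 RPKM, vertical axis) in each of the 5 groups (horizontal axis), with circles for replicate 1, triangles for replicate 2 and bars for group means. Both locus features run from p0 (means 5.84 and 4.84) down to p20 Mulas2019 (4.14 and 3.01), and Rsl24d1 spans a smaller range, from 5.97 to 5.28.

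Gm20509, the joined transcript model, took the same order at a lower level per length. At p0 its level was 5.24 and 4.43 log2 RPKM in replicates 1 and 2 (351 and 226 reads). At p10 Keniry2022 it was 4.48 and 4.52, and at p20 Keniry2022 3.71 and 4.07 (142 and 192 reads). At p10 Mulas2019 it was 3.80 and 3.81, and at p20 Mulas2019 3.44 and 2.59 (116 and 64 reads). As for 2410004A20Rik, p0 overlapped p10 Keniry2022 and p20 Keniry2022 overlapped p10 Mulas2019. The difference between p20 Mulas2019 and p0 was -1.82 ± 0.32 (SE, n = 2 against 2), or 3.53-fold lower. It was -1.42 without p0 replicate 1 and -1.40 without p20 Mulas2019 replicate 2. The differences from p0 were -1.03 ± 0.32 at p10 Mulas2019, -0.94 ± 0.32 at p20 Keniry2022 and -0.33 ± 0.32 at p10 Keniry2022, and -0.63, -0.54 and 0.07 without p0 replicate 1.

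The methods were then compared over both passages, at matched passage and at matched days of culture. Over both passages, the level of 2410004A20Rik was 5.32 ± 0.36 log2 RPKM in Keniry2022 and 4.56 ± 0.55 in Mulas2019 (SD, n = 4 each), a log2 difference of 0.76 ± 0.25 (SE). The groups overlapped, since p20 Keniry2022 replicate 1 lay below both p10 Mulas2019 libraries. For Gm20509 the levels were 4.20 ± 0.38 and 3.41 ± 0.57 (SD, n = 4 each), a log2 difference of 0.79 ± 0.27 (SE), again with overlap. At matched passage both Keniry2022 libraries lay above both Mulas2019 libraries for both features, a separation that 39% of all features tested showed at p10 and 34.1% at p20. The log2 difference for 2410004A20Rik was 0.60 ± 0.25 at p10 and 0.92 ± 0.25 at p20, and for Gm20509 0.69 ± 0.32 and 0.88 ± 0.32 (SE, n = 2 against 2). At matched days of culture, p20 Keniry2022 against p10 Mulas2019, it was 0.07 ± 0.25 for 2410004A20Rik and 0.09 ± 0.32 for Gm20509 (SE, n = 2 against 2), and the libraries overlapped for both. Without p20 Keniry2022 replicate 2 these differences were -0.15 and -0.10, and without replicate 1 they were 0.30 and 0.27.

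Within Keniry2022, p20 was set beside p10 in the same model of all 10 libraries, in which the other groups enter through the shared spread. The rule that chose the features also named passage, so these differences are a description too. 2410004A20Rik was at 5.58 in p10 and 5.06 in p20 (mean log2 RPKM, n = 2 each), a log2 difference of -0.52 ± 0.25 (SE), which was -0.30 without p20 Keniry2022 replicate 1. Gm20509 was at 4.50 and 3.89, a log2 difference of -0.61 ± 0.32 (SE), which was -0.43 without that library. In this contrast limma called 0% of the 11561 features tested, with 289 at an unadjusted p under 0.05, and 40 features with library quality weights.

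Within each line, the fall of 2410004A20Rik from p0 to p20 Mulas2019 was -1.71 in both replicate 1 and replicate 2 (log2). The corresponding values for Gm20509 were -1.80 and -1.84. From p0 to p10 Mulas2019, 2410004A20Rik differed by -1.18 in replicate 1 and -0.54 in replicate 2, and from p0 to p10 Keniry2022 by -0.61 and 0.09. For p20 Keniry2022 against p0 the labelled numbers gave -1.30 and -0.27, whereas pairing by Y-linked reads gave -0.85 and -0.72. For p20 Keniry2022 against p20 Mulas2019, the labelled numbers gave 0.41 and 1.44 and pairing by Y-linked reads 0.86 and 0.98. Group means do not depend on this pairing.

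The overlapping features were set against each other to ask whether they moved apart. Reads of Gm20509 were 7.88% to 10.1% of the reads of 2410004A20Rik over the 10 libraries, beside the 7.83% of exon length that the features share. In p20 Mulas2019 replicate 2, the library with the fewest reads, Gm20509 had 64 reads, and 7.83% of the reads of 2410004A20Rik came to 63.6. In p0 replicate 1, the library with the most, Gm20509 had 351 reads against 271.6, an excess of 79.4 reads. In the other 8 libraries the excess lay between 6.1 and 35.6 reads. The Rsl24d1 exon bases inside Gm20509 are 13.2% of the exon length of Rsl24d1, and that share of its reads would be 238.2 in p20 Mulas2019 replicate 2, above the 64 reads listed for Gm20509. The listed reads were 26.9% to 85.9% of this share over the 10 libraries.

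**Figure D2:**
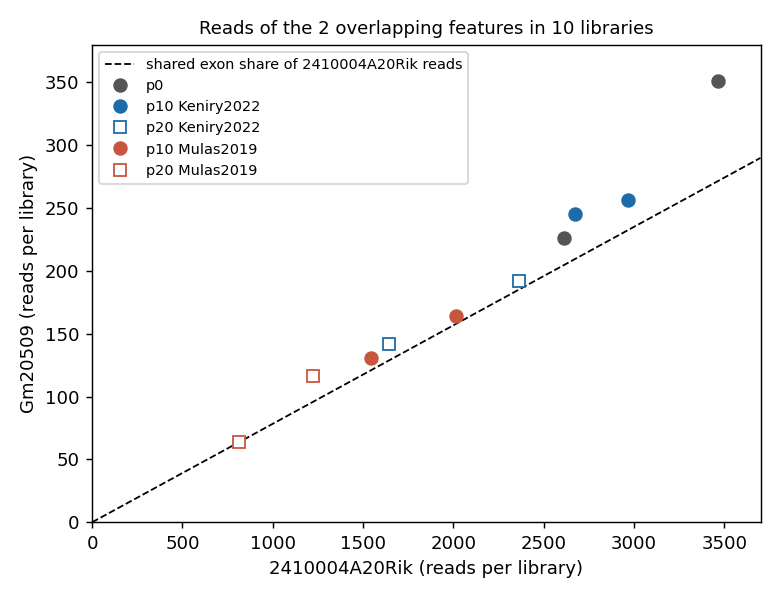
Reads of Gm20509 (vertical axis, reads per library) against reads of 2410004A20Rik (horizontal axis, reads per library) in 10 libraries, coloured by culture method (p0 in grey), with open squares for p20 and a dashed line at 7.83% of the reads of 2410004A20Rik. All 10 points lie on or above the line, by 0.4 reads where both features were lowest (p20 Mulas2019 replicate 2) and by 79.4 reads where both were highest.

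The level of Gm20509 minus that of 2410004A20Rik was -1.12 ± 0.07 in Keniry2022 and -1.15 ± 0.12 in Mulas2019 (log2, SD, n = 4 each). The difference between the methods was 0.03, given as a description because the features were chosen together and share reads. Over the 10 libraries the levels of the features correlated with r = 0.99 (Pearson), a description of values that share libraries and the 161 bases above. How the authors' software shared reads between overlapping features is not given in the sources used here, so the level of Gm20509 cannot be assigned to the joined transcript.

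Rsl24d1, a factor in the assembly of the large ribosomal subunit and the other partner in Gm20509, was also lower in Mulas2019. Its level at p0 was 6.23 and 5.72 log2 RPKM in replicates 1 and 2, at p10 Keniry2022 5.93 and 5.85, and at p20 Keniry2022 5.67 and 5.75. At p10 Mulas2019 it was 5.43 and 5.30, and at p20 Mulas2019 5.30 and 5.26. The 4 Keniry2022 libraries all lay above the 4 Mulas2019 libraries, a separation in either direction that 46.5% of tested features showed. Rsl24d1 was 1.39-fold higher in Keniry2022 (log2 difference 0.48 ± 0.06, SE, adjusted p = 0.000186 by limma). From p0 to p20 Mulas2019 it fell by 0.69 log2 (SE 0.15, adjusted p = 0.0214), and by 0.44 without p0 replicate 1. This call was kept in 14 of 17 alternatives and lost with library quality weights (adjusted p = 0.133). The log2 difference from p10 to p20 Mulas2019 was -0.09 ± 0.15 for Rsl24d1, beside -0.85 ± 0.25 for 2410004A20Rik. The latter was chosen in part for its fall with passage. The rule did not use Rsl24d1, but it shares the libraries and, through Gm20509, exon bases with the locus features.

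The table lists 14 further features within 500 kb of the locus, of which 11 were expressed above the filter (log2 RPKM above 0 in at least 50% of libraries). In Keniry2022 against Mulas2019, 2 of the 11 were higher, 5 lower and 4 not called. Their median log2 difference was -0.11, beside -0.003 over all 11654 features tested, of which 51.5% were called (25.9% higher and 25.5% lower). Besides Rsl24d1, the feature higher in Keniry2022 was Rab27a, the gene immediately upstream of Khdc3, which encodes a small GTPase of secretory vesicle traffic. Rab27a was at 2.82 to 3.18 log2 RPKM in Keniry2022 and 2.26 to 2.68 in Mulas2019, a log2 difference of 0.60 ± 0.11 (SE, adjusted p = 0.00163). These 2 features on either side of the locus kept their call in all 17 alternatives.

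The neighbours lower in Keniry2022 were Rfx7, a transcription factor (log2 difference -0.18), Nedd4, a ubiquitin ligase (-0.11), Prtg, a cell surface protein of the developing nervous system (-0.34), and the 2 features named Pigb, a gene of GPI-anchor synthesis (-0.17 and -0.38). Their adjusted p lay between 0.00502 and 0.0252. The calls of Nedd4 and of the Pigb feature at -0.17 were lost in 6 and 5 of 17 alternatives, and those of Rfx7 and Prtg with all 10 libraries in the model (adjusted p = 0.41 and 0.121). Dyx1c1 (-0.22), Gm20510 (-0.002), Gm5918 (-0.01) and Ccpg1 (-0.03) were not called, and the last 3 changed sign in some alternatives. Several of these features overlap one another (Gm20510 with Dyx1c1, Ccpg1 and Pigb), and their reads are uncertain in the same way. Pygo1 (152 to 254 reads per library), Gm5745 (at most 1 read) and Unc13c were below the filter, and Unc13c had 0 reads in all 10 libraries.

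From p0 to p20 Mulas2019, 29.3% of 11561 features were called (14.7% higher and 14.6% lower), and of the 11 neighbours 3 were called higher, 2 lower and 6 not. The lower features were Rsl24d1 and Rab27a, which fell by 0.59 log2 (SE 0.12, adjusted p = 0.019). The higher ones were Prtg (log2 difference 1.51 ± 0.19, adjusted p = 0.00902), Rfx7 (0.78 ± 0.21, adjusted p = 0.0322) and the second Pigb feature (0.64 ± 0.16, adjusted p = 0.0274). Without p0 replicate 1 the log2 difference of Rfx7 was 0.40. With library quality weights 0 of the 11 were called, as were 0 of all 11561 features. In this contrast Rab27a kept its call in 14 of 17 alternatives, Prtg in 13 of 16, Rfx7 in 8 of 17 and the second Pigb feature in 9 of 16. Over chromosome 9 as a whole the median log2 difference was 0.05 (654 features), beside 0.04 over the autosomes.

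**Figure D3:**
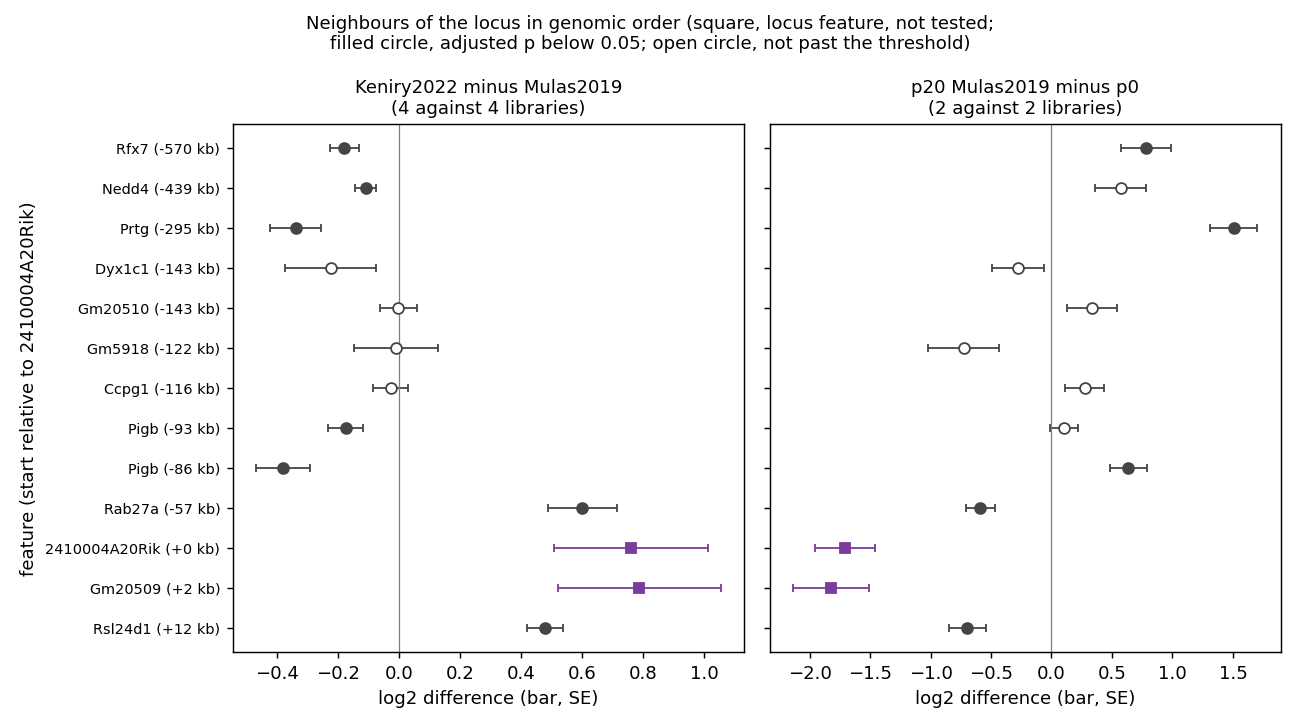
Log2 differences (horizontal axes, bars SE) of the locus features and their 11 tested neighbours in genomic order (vertical axis, distance of each start from that of 2410004A20Rik in kb), for Keniry2022 minus Mulas2019 on the left and p20 Mulas2019 minus p0 on the right. Squares are the locus features, filled circles lie past an adjusted p of 0.05 and open circles do not. Rab27a, the locus features and Rsl24d1 lie to the right of 0 in the left panel and to the left of 0 in the right panel.

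The partners of Filia in the subcortical maternal complex differed in direction. Of 7 partners in the table, 4 were expressed above the filter, and in Keniry2022 against Mulas2019 1 of these was higher, 2 lower and 1 not called (median log2 difference -0.03), beside 25.9% of all features higher and 25.5% lower. Nlrp4f, an NLR-family protein that binds the complex, was at 4.43 to 4.59 log2 RPKM in Keniry2022, 3.59 to 3.97 in Mulas2019, and 4.23 and 4.33 at p0. It was 1.67-fold higher in Keniry2022 (log2 difference 0.74 ± 0.08, adjusted p = 9.65e-05), and kept its call in all 17 alternatives. Tle6, a transducin-like core subunit, was at 2.03 to 2.09 in Keniry2022 and 2.39 to 2.63 in Mulas2019, a log2 difference of -0.44 ± 0.06 (adjusted p = 0.000414), also kept in all 17.

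Ooep, the KH-domain core subunit also called Floped, was the most abundant partner. It was at 6.20 to 6.33 log2 RPKM in Keniry2022, 5.99 to 6.28 in Mulas2019, and 6.85 and 6.29 at p0. Its log2 difference between the methods was 0.11 ± 0.07 (adjusted p = 0.189). Zbed3, a zinc finger protein of the complex, had a log2 difference of -0.17 ± 0.06 (adjusted p = 0.0456), which was lost in 12 of 17 alternatives, the replicate block among them (adjusted p = 0.0616). Padi6 (15 to 38 reads per library), Nlrp5 (at most 6 reads) and Nlrp2 (0 reads in all 10 libraries), the oocyte-restricted members, were too low to test.

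In p20 Mulas2019 against p0, Nlrp4f had a log2 difference of -0.35 ± 0.09 (adjusted p = 0.0281, lost in 9 of 17 alternatives) and Tle6 of 0.64 ± 0.13 (adjusted p = 0.0176, lost in 3 of 17). Ooep had -0.30 ± 0.16 (adjusted p = 0.169) and Zbed3 0.14 ± 0.15 (adjusted p = 0.494), and without p0 replicate 1 they were at -0.03 and 0.35. These stand beside the -1.71 of 2410004A20Rik in the same contrast. That feature was chosen for its fall and the partners were not, so the sizes cannot be compared as like with like.

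Other KH-domain genes of the family lay at very different levels. Dppa5a, a pluripotency-associated gene next to Ooep on chromosome 9, was at 10.33 to 10.44 log2 RPKM in Keniry2022 and 10.23 to 10.35 in Mulas2019, and at 11.58 and 10.79 at p0. Its log2 difference between the methods, 0.10 ± 0.04, had an adjusted p of 0.0486, which the replicate block moved to 0.0616 and which was lost in 11 of 17 alternatives. From p0 to p20 Mulas2019 it was -0.85 ± 0.21 (adjusted p = 0.0287, lost in 10 of 17 alternatives), and -0.46 without p0 replicate 1. Khdc1a, Khdc1b and Khdc1c, closely related genes among which reads may be split, were too low to test. Khdc1a had 14 and 7 reads at p0, 17 to 37 in the Keniry2022 libraries and 3 to 6 in the Mulas2019 libraries. Khdc1b had at most 14 reads in any library, and Khdc1c had 11 to 77 reads in Keniry2022 and 2 to 27 in Mulas2019.

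Genes of the replication fork and DNA damage response, where Filia is known to act in mESCs, were divided. All 35 of the 37 listed genes that the table holds were tested, and in Keniry2022 against Mulas2019 6 were higher, 4 lower and 25 not called, or 28.6% called beside 51.5% of all features. The median log2 difference of the list was 0.01, beside -0.003 over all features. Trim25 and Blm, known partners of Filia at stalled forks, had log2 differences of 0.03 ± 0.04 (adjusted p = 0.507) and -0.01 ± 0.05 (adjusted p = 0.876). Trim25 was at 5.59 to 5.74 log2 RPKM in Keniry2022 and 5.61 to 5.65 in Mulas2019, and Blm at 4.74 to 4.86 and 4.72 to 4.92, with overlap in both genes.

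Rpa2, a subunit of the single-strand binding protein, was 1.29-fold higher in Keniry2022 (6.20 to 6.29 against 5.84 to 5.92 log2 RPKM, adjusted p = 4.95e-05). Chek1, the checkpoint kinase downstream of Atr, was 1.31-fold higher (4.81 to 4.93 against 4.42 to 4.61, adjusted p = 0.000203). Trp53, the gene of p53, was 1.20-fold higher (5.91 to 6.14 against 5.73 to 5.84, adjusted p = 0.00164). Lower were Mdc1, a mediator that binds marked chromatin at breaks, with a log2 difference of -0.29 (adjusted p = 0.000191), Rad50, of the break-sensing complex, with -0.34 (adjusted p = 0.000281), and Atrip, the partner of Atr, with -0.25 (adjusted p = 0.00422). With all 10 libraries in the model, adjusted p was 0.148 for Trp53, 0.361 for Mdc1 and 0.0814 for Rad50, and Trp53 also lost its call under quantile normalisation (adjusted p = 0.0627). Rpa2, Chek1 and Atrip kept theirs in all 17 alternatives. Quantile normalisation also gave a call to Chek2, Fanci, H2afx and Topbp1, each lower in Keniry2022 (adjusted p from 0.00238 to 0.0359). The split of higher and lower genes in this list thus depended on normalisation. From p0 to p20 Mulas2019, 2 of the 35 were higher and 5 lower, or 20% called beside 29.3% of all features. Chek1 (log2 difference -0.51 ± 0.09, adjusted p = 0.0146) and Rpa2 (-0.37 ± 0.07, adjusted p = 0.0173) fell, while Rad50 (0.75 ± 0.17, adjusted p = 0.0217) rose. Rpa2 lost this call under quantile normalisation (adjusted p = 0.357). With library quality weights 0 of the 35 were called, as were 0 of all 11561 features. Mdc1 had a log2 difference of 0.94 ± 0.30 (adjusted p = 0.0504), and the replicate block moved its adjusted p to 0.0477. Without p0 replicate 1 the log2 differences were 0.47 for Rad50 and 0.36 for Mdc1, and 13 of the 35 were called, beside 37.5% of all features. Without p0 replicate 2, 27 were called, beside 71.1% of all features.

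Genes of the spindle and its checkpoint, examined because Filia is known for correct chromosome division in embryos, included 6 of 16 higher and 0 lower in Keniry2022. The called share of 37.5% stands beside 51.5% of all features, of which 25.9% were higher and 25.5% lower, and the median log2 difference of the list was 0.02. Mad2l1 was 1.26-fold higher (5.83 to 5.93 against 5.46 to 5.67 log2 RPKM, adjusted p = 0.000367), the kinase gene Ttk 1.21-fold (adjusted p = 0.00173) and Cdc20, an activator of the anaphase-promoting complex, 1.18-fold (adjusted p = 0.00307). Aurkb (-0.06), Cenpe (-0.11) and Mad1l1 (-0.05) had the smallest p among those with a negative log2 difference, and none passed the threshold (adjusted p from 0.185 to 0.343), although Aurkb did under quantile normalisation (adjusted p = 0.00787). With all 10 libraries in the model, 1 of the 16 was called, beside 2225 of all 11561 features. Adjusted p was then 0.13 for Mad2l1 and 0.0505 for Ttk. The split of directions also depended on normalisation. Under quantile normalisation Cdc20 (adjusted p = 0.295), Bub3 (0.418), Birc5 (0.323) and Tpx2 (0.65) lost their calls of higher, while Mad2l1 and Ttk kept theirs. Besides Aurkb, it gave a call to Incenp, Aurka, Plk1 and Cdca8 (adjusted p from 0.00637 to 0.0288). These genes had negative log2 differences without it. In p20 Mulas2019 against p0, Mad2l1 was the 1 gene of the list that was called (log2 difference -0.90 ± 0.20, adjusted p = 0.0217), or 6.25% beside 29.3% of all features. The log2 difference of Mad2l1 was -0.54 without p0 replicate 1. With library quality weights 0 of the 16 were called, as were 0 of all 11561 features. Without p0 replicate 1, 5 of the 16 were called, and without p0 replicate 2, 10, beside 37.5% and 71.1% of all features.

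**Figure D4:**
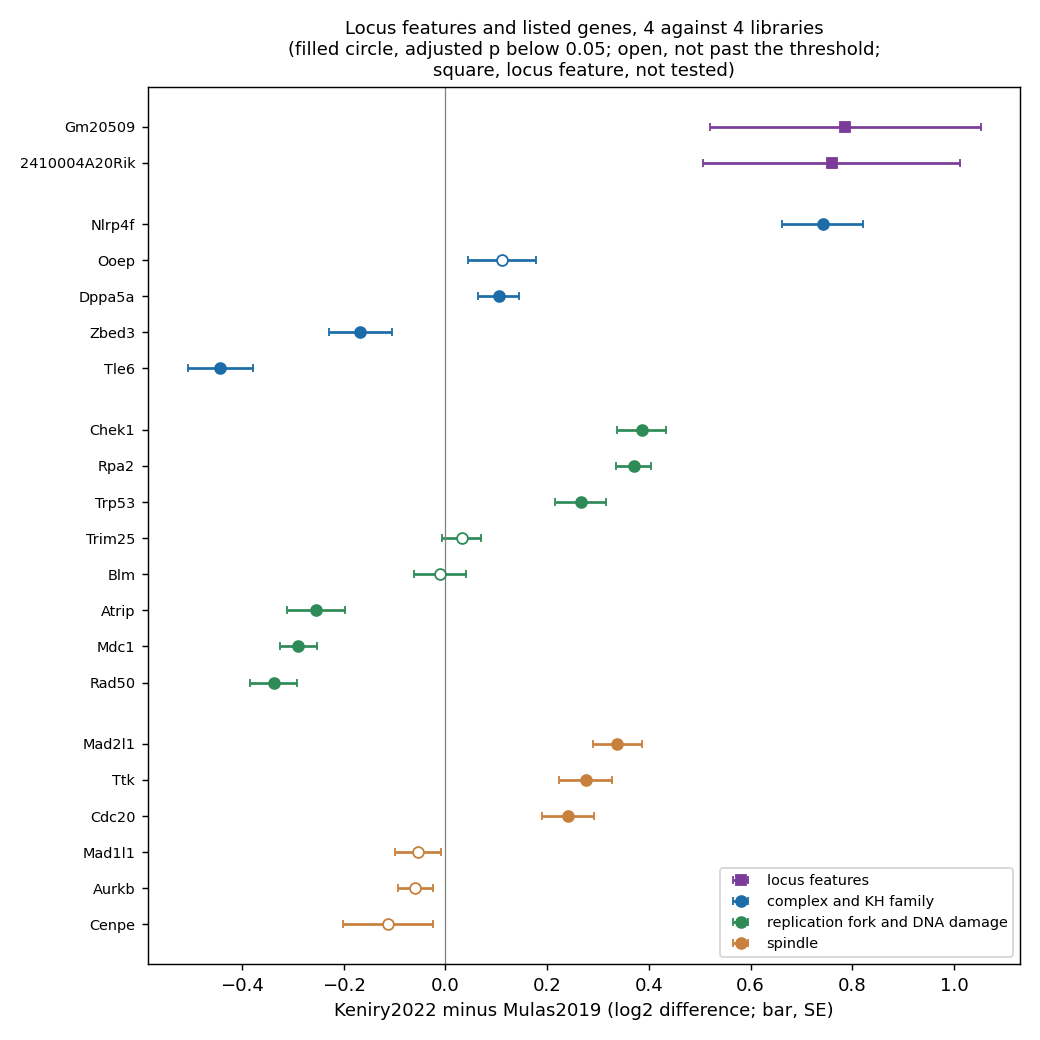
Log2 difference between Keniry2022 and Mulas2019 (horizontal axis, bars SE, 4 against 4 libraries) for the locus features (squares) and the named genes of each list (filled circles past an adjusted p of 0.05, open circles not). Nlrp4f, at 0.74, lies nearest to the locus features at 0.76 and 0.79, Tle6, at -0.44, is the lowest gene shown, and Ooep, Trim25 and Blm lie near 0.

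The features whose levels most resembled that of 2410004A20Rik over the 10 libraries were ranked by Pearson correlation, among 6196 features with a mean log2 RPKM of at least 3 that do not overlap the locus. These correlations share libraries and the low and high groups above, and are a description without a test. The 8 highest were Tprn (r = 0.96), Smarcd2 (r = 0.94), Cd63 (r = 0.94), Hnrnpf (r = 0.94), Aldh16a1 (r = 0.94), Vdac1 (r = 0.94), Wdr45 (r = 0.94) and Sgk1 (r = 0.93). None of the 6196 reached the r of 0.99 of Gm20509, and their median was 0.23. The ranking selected for a like pattern and did not use the size of change. From p0 to p20 Mulas2019 the log2 difference was -1.03 for Wdr45, -0.98 for Sgk1 and -0.73 for Tprn, and between -0.46 and -0.17 for the other 5. Rsl24d1 correlated at 0.88, Dppa5a at 0.63 and Ooep at 0.45 with 2410004A20Rik.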

How the data were processed

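Male mESC RNA-seq libraries (10, single-end) were made and processed by the authors. Per the study, reads were aligned to mm10 with HISAT2 and quantified in SeqMonk, while TopHat2 2.0.12 and bcl2fastq appear in the submitters' processing notes. For multi-mapping reads, strand and overlaps, settings are not stated in any source read for this work. The authors deposited 1 table of log2 values, named as log CPM, in which the value of a feature with 0 reads depends on exon length and library total, so the deposited values are log2 RPKM with 0 reads entered as 0.9 reads. Library totals, exon lengths and whole reads (within 0.1 reads) were recovered from these floors.

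The deposited log2 values were tested with limma 3.58.1 in R 4.3.3 (moderated test with intensity trend, two-sided, Benjamini-Hochberg adjustment over all features tested, threshold 0.05) without a pseudocount, for features with a log2 value above 0 in at least 50% of the libraries fitted. The authors' own edgeR and voom fit was not repeated. Keniry2022 against Mulas2019 pooled p10 and p20, without a block. Other contrasts used 1 model of all 10 libraries with 5 groups. The fits were tested on simulated data. A planned exact permutation test of Gm20509 minus 2410004A20Rik between the methods, and the p-values of p20 against p10 Keniry2022 for these features, are not reported, since the choice of the features bears on both. Sequences were read from GRCm38 with GENCODE M21, and features were matched by name.

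The members and the gene lists were chosen with earlier results of these data known. Named genes were every member of the complex, KH-domain and neighbour lists that was tested, the 3 of smallest p in each direction of the fork and spindle lists, Trim25 and Blm, and the 8 features of highest correlation. Further fork and spindle genes were named where quantile normalisation changed their call between the methods. Replicate numbers were taken to mark the 2 lines, so a replicate block was an alternative. Deviations of same-numbered libraries from their group means correlated at 0.17 to 0.63 among p0, p10 Keniry2022, p10 Mulas2019 and p20 Mulas2019, and at -0.70 to -0.12 with p20 Keniry2022. Alternatives were median centring, quantile normalisation, a stricter filter (log2 above 2), no filter, library quality weights, the block, passage as a term, a model of all libraries, a pseudocount of 1 for the locus levels, and leaving out each library.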

Additional observations from a re-analysis of the deposited data

Results flagged for a closer look

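The Pigb feature that starts at 73015696 was the one with a library far from the other 3 of its method, by the gap to the nearest library over the range of 4 (Dixon's test at 95%), which chance gives in about 1 of 20 groups. It was at 1.48 log2 RPKM in p20 Keniry2022 replicate 2, beside 1.80 to 1.83 in the other Keniry2022 libraries. It was also at 1.98 in p20 Mulas2019 replicate 1, beside 2.14 to 2.15 in the other Mulas2019 libraries. Neither locus feature was flagged. For method and passage together, limma called 0 of 11561 features in the interaction (405 at an unadjusted p under 0.05).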

How the results depend on the processing

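The fall of both locus features from p0 to p20 Mulas2019 and their higher level in Keniry2022 kept their direction under median centring, quantile normalisation, a pseudocount of 1 and without each library. The features were chosen for their fall on gelatin, so this kept direction is no independent support for either difference. The log2 difference of Gm20509 minus 2410004A20Rik between the methods, 0.03, changed sign with a pseudocount of 1 (-0.005) and lay between -0.0081 and 0.0817 without each library (-0.0015 without p10 Keniry2022 replicate 1). Calls in Keniry2022 against Mulas2019 numbered 6000, with 5749 under the replicate block, 5780 with the block after exchanging the numbers of p20 Keniry2022 (chosen after seeing the data) and 5049 to 5659 without each library. In the model of all libraries they numbered 2225, with 3 fork, 1 spindle and 3 neighbour features. Calls of p20 Mulas2019 against p0 numbered 3386, with 3136 under the block, 2990 with exchanged numbers, 0 with weights, 1 without p20 Mulas2019 replicate 1, 16 without its replicate 2 and 8175 without p0 replicate 2. Calls of p20 against p10 Keniry2022 numbered 0, with 0 under the block, 1 without a filter, 40 with weights and 0 to 3 without each library. The causes were not tested. The block changed the call of no gene named here but Zbed3, Dppa5a and Mdc1.

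Small log2 differences changed sign. Between the methods, quantile normalisation gave -0.0188 for Ooep, -0.0655 for Trim25 and 0.0628 for Gm5918, weights gave 0.0328 for Gm5918, and median centring gave 0.0021 for Blm, 0.0109 for Gm20510 and 0.0026 for Gm5918. Without each library the ranges were -0.0384 to 0.0261 for Blm, -0.032 to 0.0477 for Gm20510, -0.091 to 0.1069 for Gm5918 and -0.0566 to 0.0203 for Ccpg1. From p0 to p20 Mulas2019, Zbed3 was at -0.0076 under quantile normalisation. Without each library the ranges were -0.0788 to 0.3512 for Zbed3, -0.0354 to 0.7103 for Gm20510, -0.0026 to 0.5509 for Ccpg1 and -0.0448 to 0.2509 for the Pigb feature that starts first. Depth limits Gm20509 (64 to 351 reads), Padi6, Nlrp5 and the Khdc1 genes.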
